A study of Xenopus laevis with 12 samples.

Results

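Caps of frog ectoderm given wnt3a and chordin mRNAs together were compared with caps given lacZ mRNA, gene by gene, on 6 of the 12 arrays of the series, with 3 arrays in each group. The members were taken from the sample titles, and no measured value was used to choose them. Both groups are animal caps of Xenopus laevis, the ectoderm around the animal pole of the blastula, cut out at stage 9 and collected at stage 15. The mRNAs were injected into the animal pole at the 2-cell stage, embryos were raised in diluted MMR salt solution, and the caps were kept in buffered L-15 medium with albumin. lacZ mRNA codes for bacterial beta-galactosidase and has no known role in cap development. According to the labels neither group received kctd15 mRNA, which was given to the other 6 arrays. The sources used here did not state the mRNA doses, the caps per sample or whether same-numbered samples share a clutch. The p-values below therefore measure the spread between samples of the series. That spread was pooled over all 12 arrays, so it includes the spread of the 6 arrays labelled kctd15. Standard errors and p-values thus do not describe the 6 compared arrays alone. For the gene slc26a4l.L the SD was 0.12 in wnt3a and chordin arrays and 0.08 in lacZ arrays, but the standard error was 1.07.

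Animal caps left to themselves become epidermis, because BMP signals between the cells are high. The larval frog epidermis holds mucus-secreting goblet cells, multiciliated cells, proton-pumping ionocytes and small secretory cells. Chordin is a secreted BMP antagonist, and ectoderm relieved of BMP signalling takes on an anterior neural fate. Wnt ligands such as Wnt3a act through beta-catenin, posteriorise neural tissue and, at intermediate BMP levels, induce the neural plate border, from which neural crest and placodes arise. Neural crest cells later leave the dorsal neural tube and form pigment cells, peripheral neurons, glia and the facial skeleton.

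Values are the deposited log2 expression per probe set, so that 1 unit is a 2-fold difference, and each difference is the wnt3a and chordin mean minus the lacZ mean ± its standard error from limma. A gene was called higher or lower where limma's Benjamini-Hochberg adjusted p over all 32475 tested probe sets was under 0.05. The 10822 named genes are each represented by the probe set with the highest mean, and the homeologs of this allotetraploid frog, marked .L and .S, count as separate genes and may cross-hybridise. In bulk caps, fewer cells of a type and less RNA per cell cannot be told apart. With 3 arrays per group, the number of arrays sets the precision. The 17 control probe sets named Tag read 3.08 to 5.28 in these 6 arrays, so a gene read in that range may lie at background and its difference from a bright group has no exact fold.

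The arrays of a group correlated at 0.975 to 0.982 for wnt3a and chordin and at 0.973 to 0.986 for lacZ, against 0.843 to 0.917 between the groups. Some arrays stood apart from their group in parts of the table. In wnt3a and chordin replicate 1, 64 genes lay at least 2 log2 units below both other arrays of the group, and 35 of these belong to the muscle, notochord, tail bud or Hox lists. In wnt3a and chordin replicate 2, 48 genes did so, among them 6 epidermal, keratin or desmosome genes. In lacZ replicate 3, 106 genes lay at least 2 units above both other lacZ arrays, of which 21 are in the muscle, notochord, tail bud or Hox lists and 23 in neural, crest, placode or forebrain lists. Values by array are given below for part of the genes described, and the others are given by their difference only.

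Of all 32475 probe sets 13421 (41.3%) were called. Of the 10822 genes, 2805 (25.9%) were higher in wnt3a and chordin caps and 2069 (19.1%) were lower. The lower genes had moved further. Their median difference was -1.33, against 0.80 for the higher genes. By at least 2 log2 units, 323 genes (2.98%) were higher and 663 (6.13%) lower. By at least 4 units, 65 (0.601%) were higher and 178 (1.64%) lower, and by at least 6 units 12 (0.111%) and 29 (0.268%). Of the called genes, 4868 of 4874 had the same sign in all 3 differences between same-numbered arrays. The calls rest on these same arrays, so this agreement follows largely from the selection and is no separate support. The median difference over all genes was 0.103, and list medians below should be read against it. Counts of list and family members should likewise be read against 25.9% higher and 19.1% lower over all genes. The lists and families were chosen with earlier results of these data known, so their counts describe the caps and are no independent test.

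Genes of skin cell types were among the largest falls. Of the 178 genes lower by at least 4 units, 29 belong to the multiciliated cell list or the family of axoneme and transport proteins of cilia, 16 to the ionocyte list or the proton pump, 8 to epidermis, keratins or desmosomes and 9 to BMP targets, and 97 to no list or family used here. Among the 65 genes higher by at least 4 units, 19 were in the crest or plate border lists, 15 in the neural lists and 25 in none. A gene can be in more than 1 list. Of all 10822 genes, 1.64% were lower by at least 4 units and 0.601% were higher. The multiciliated cell list has 49 members and the cilia family 62, the ionocyte list 31 and the proton pump 27. The epidermis list has 55, keratins 29, desmosomes 13 and BMP targets 47. Members shared between lists were not removed from these sizes. The combined sizes of the crest, border and neural lists were not counted, and no list was tested for an excess.

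**Figure D1:**
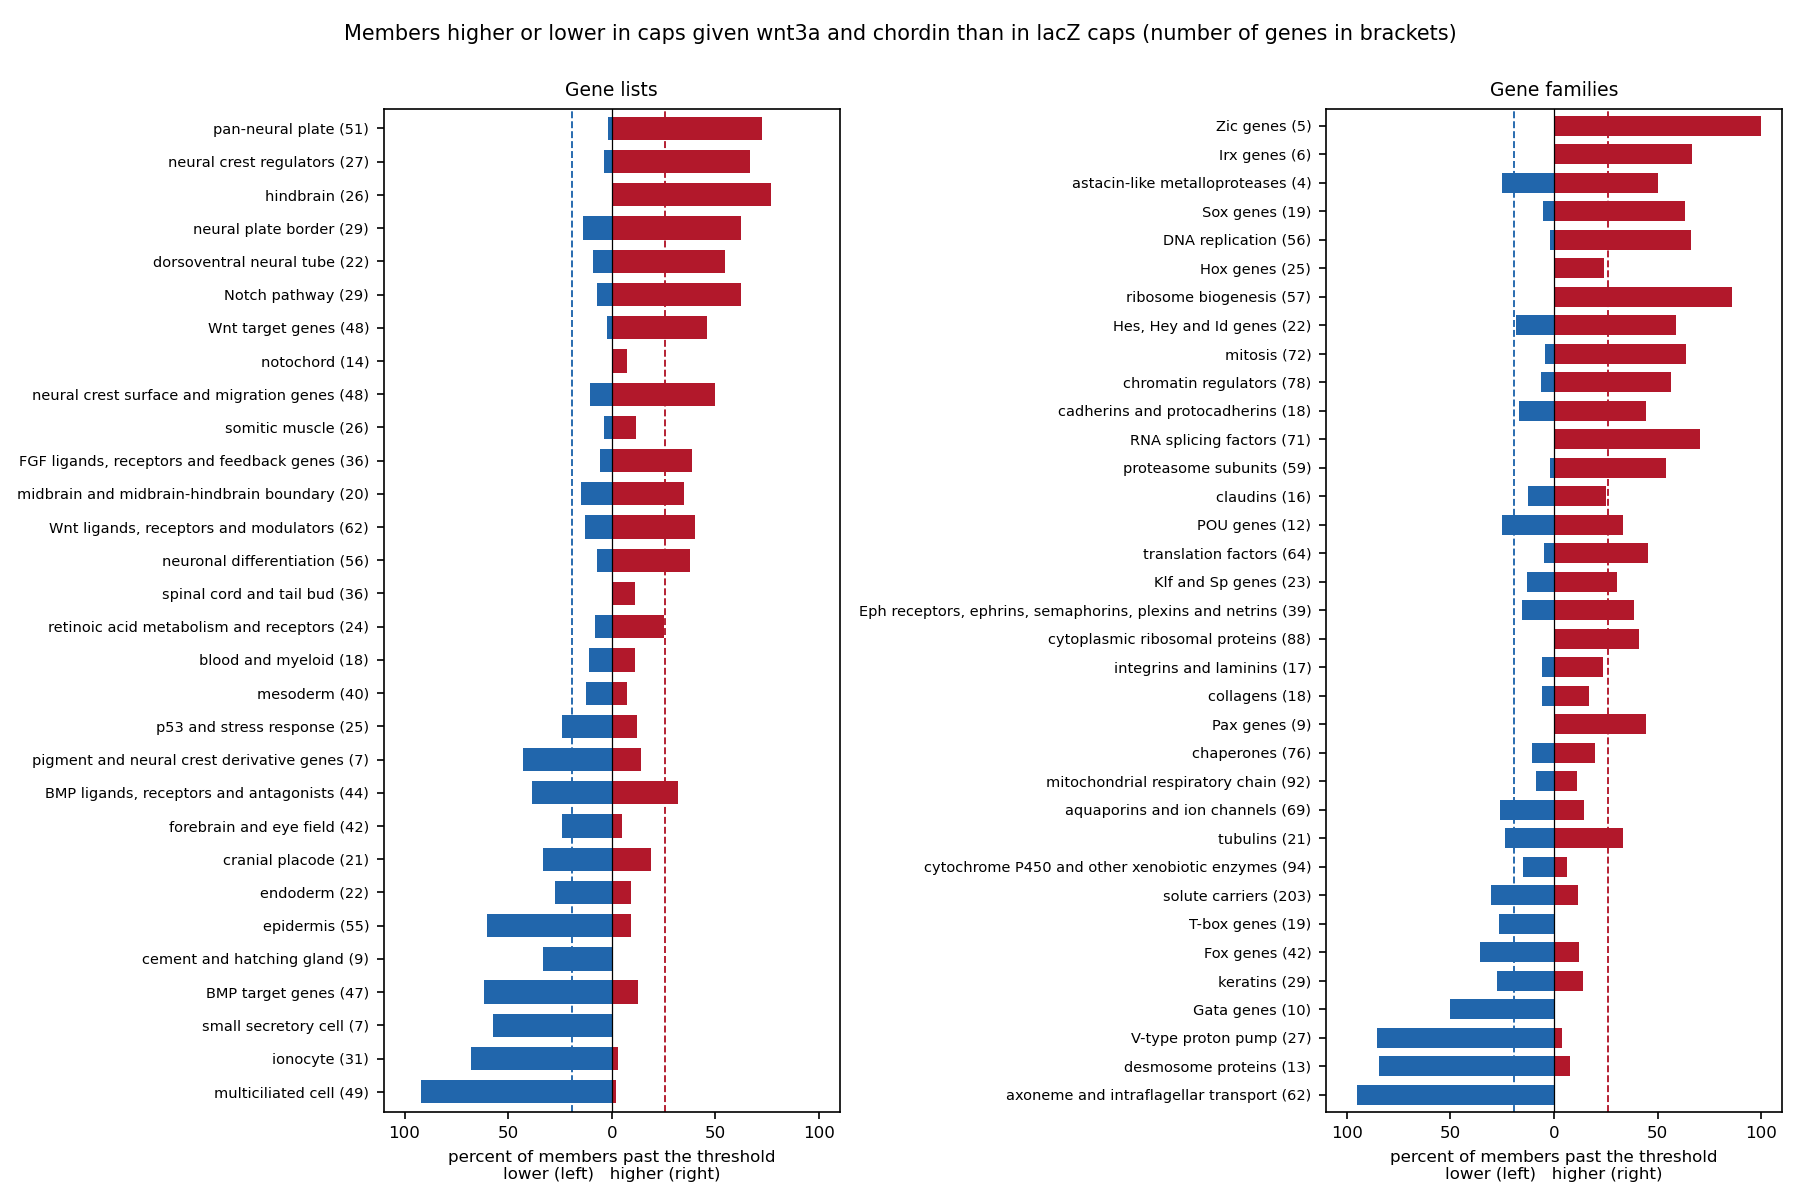
Percent of the members of each gene list and gene family that were called higher (to the right) or lower (to the left) in wnt3a and chordin caps than in lacZ caps, with the number of genes in brackets and dashed lines at the shares over all genes, 25.9% and 19.1%. Pan-neural, hindbrain and crest regulator genes reach furthest to the right among the lists and multiciliated cell genes furthest to the left.

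The injected wnt3a was seen on the arrays. wnt3a.S read 12.83, 12.97 and 12.47 in wnt3a and chordin arrays, against 5.21, 6.06 and 6.43 in lacZ arrays. The groups did not overlap, and the difference was 6.86 ± 0.38 (adjusted p = 1.38e-06). For chordin, chrd.1.S read 8.5, 10.2 and 10.38 in wnt3a and chordin arrays, against 4.08, 3.79 and 9.37 in lacZ arrays. The high value of lacZ replicate 3 made the groups overlap, and the difference of 3.95 ± 1.55 was not called (adjusted p = 0.0652). With a replicate block it was called (adjusted p = 0.0293), as it was when lacZ replicate 3 was left out (5.76, adjusted p = 0.00535). These probe sets cannot separate injected from endogenous RNA.

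Of 48 measured Wnt target genes, 22 (45.8%, against 25.9% over all genes) were higher, 1 was lower and 25 were not called, with a median difference of 0.83. axin2.L, a feedback inhibitor of the pathway that is widely used as a readout of beta-catenin activity, read 12.91, 13.06 and 13.24 in wnt3a and chordin arrays, against 8.81, 9.33 and 9.87 in lacZ arrays. Its difference was 3.74 ± 0.31 (adjusted p = 8.94e-06), and that of its homeolog axin2.S was 4.11 ± 0.24. sp5.L, a zinc finger gene downstream of beta-catenin, was higher by 4.85 ± 0.48 and lef1.S, which codes for a DNA-binding partner of beta-catenin, by 1.13 ± 0.21. The member that went the other way was bambi.L, a pseudoreceptor gene that also belongs to the BMP targets, at -4.37 ± 0.57.

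Among 62 ligands, receptors and modulators of the Wnt pathway 25 were higher and 8 lower, with a median of 0.36. The higher members include wnt3a.S, the injected gene. wnt11.S, a ligand of the non-canonical branch, was higher by 4.25 ± 0.30, and ror2.L, a receptor of that branch, by 4.09 ± 0.61. Receptors of the Frizzled family moved in opposite directions. fzd7.L read 10.95, 11.95 and 11.38 in wnt3a and chordin arrays, against 7.15, 7.76 and 9.27 in lacZ arrays. fzd4.S read 4.24, 4.69 and 4.41 in wnt3a and chordin arrays, against 8.83, 8.95 and 8.18 in lacZ arrays. Neither pair of groups overlapped, and the differences were 3.37 ± 0.49 for fzd7.L and -4.21 ± 0.29 for fzd4.S.

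BMP target genes fell. Of 47 measured genes 29 were lower and 6 higher, with a median of -2.0. The largest fall was that of szl.L, which codes for sizzled, a secreted inhibitor of chordin-cleaving proteases that BMP signalling turns on ventrally. It read 3.00, 2.96 and 3.08 in wnt3a and chordin arrays, against 12.45, 12.54 and 11.28 in lacZ arrays, a difference of -9.08 ± 1.04 (adjusted p = 6.78e-05). Its homeolog szl.S differed by -7.58 ± 0.74. Among the other targets the ventral homeobox gene ventx2.1.S fell by 2.79, id2.L by 3.01 and id4.S by 3.34 on the log2 scale. The homeolog ventx2.1.L (-0.15, adjusted p = 0.733) and ventx1.1.L (0.12, adjusted p = 0.798) were not called, while ventx1.1.S was lower (-1.92, adjusted p = 0.000695). The Id genes code for inhibitors of basic helix-loop-helix factors, and they did not move together: id3.L read 12.79, 13.04 and 12.88 in wnt3a and chordin arrays, against 12.38, 12.49 and 12.57 in lacZ arrays, and was not called (adjusted p = 0.0703, or 0.0196 with the replicate block). Its homeolog id3.S was called higher (0.32, adjusted p = 0.0421), a call lost in several settings.

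Ligands and secreted modulators of the BMP pathway moved in both directions. Of 44 measured ligands, receptors and antagonists 14 were higher and 17 lower, with a median of -0.21. The ligand genes bmp4.S and bmp7.2.L differed by -2.75 ± 0.33 and -5.40 ± 0.65, whereas the ligand gene bmp2.S rose by 4.05 ± 0.46 and bmp2.L by 1.72 ± 0.41. Among secreted modulators, szl.L and szl.S fell as given above, and so did twsg1.L and twsg1.S, the twisted gastrulation genes (-1.94 ± 0.55 and -3.78 ± 0.42). fst.L, the gene of follistatin, which binds activins and BMPs, read 11.97, 12.0 and 10.98 in wnt3a and chordin arrays, against 4.84, 4.61 and 7.43 in lacZ arrays, a difference of 6.02 ± 0.73 (adjusted p = 9.33e-05). nog.L, the gene of noggin, was higher by 3.92 ± 0.37 (adjusted p = 1.8e-05).

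Regulators of the neural crest rose. Of 27 measured genes 18 were higher and 1 was lower, with a median of 2.57 and medians of 2.93, 2.68 and 1.92 in the differences between arrays of replicates 1, 2 and 3. foxd3.L, a forkhead gene required for crest specification, read 12.23, 11.32 and 11.6 in wnt3a and chordin arrays, against 3.95, 3.90 and 5.78 in lacZ arrays. The groups did not overlap, and the log2 difference was 7.17 ± 0.66 (adjusted p = 1.72e-05), and foxd3.S differed by 6.90 ± 0.75. The SoxE genes, which keep crest cells multipotent and later drive glial, pigment and cartilage fates, were high as well. sox9.S read between 12.11 and 12.57 in the 3 wnt3a and chordin arrays, against 5.85, 5.82 and 8.35 in lacZ arrays (5.69 ± 0.68, adjusted p = 8.9e-05). sox8.L read 12.92, 12.18 and 12.42 in wnt3a and chordin arrays, against 6.75, 7.42 and 8.06 in lacZ arrays (5.10 ± 0.52). Both stood far above lacZ in every array, whereas sox10.L varied within the group: it read 10.69, 7.03 and 8.26 in wnt3a and chordin arrays, against 3.21, 3.68 and 3.56 in lacZ arrays (5.18 ± 1.12, adjusted p = 0.00362).

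Genes of the epithelial-to-mesenchymal programme of the crest were among those called. snai2.L, which represses E-cadherin, read 11.71, 10.25 and 11.34 in wnt3a and chordin arrays, against 6.81, 5.71 and 6.58 in lacZ arrays (4.73 ± 0.81, adjusted p = 0.000895). The probe set of its homeolog snai2.S was dim in both groups and was not called (0.71 ± 0.61, adjusted p = 0.393). twist1.L was higher by 3.43 ± 0.41 and mycn.L, a Myc gene of proliferating progenitors, by 4.53 ± 0.65. Some factors used as crest markers were not called. tfap2a.L, which is shared by crest and epidermis, read 12.2, 11.39 and 11.72 in wnt3a and chordin arrays, against 11.45, 11.72 and 11.33 in lacZ arrays, and was not called, while tfap2b.L rose by 4.77 ± 0.57. ets1.L, a gene of the cardiac crest, differed by 0.10 ± 0.48 and was not called, while its homeolog ets1.S rose by 1.75 ± 0.39. The member that fell was myb.S at -1.58 ± 0.23.

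**Figure D2:**
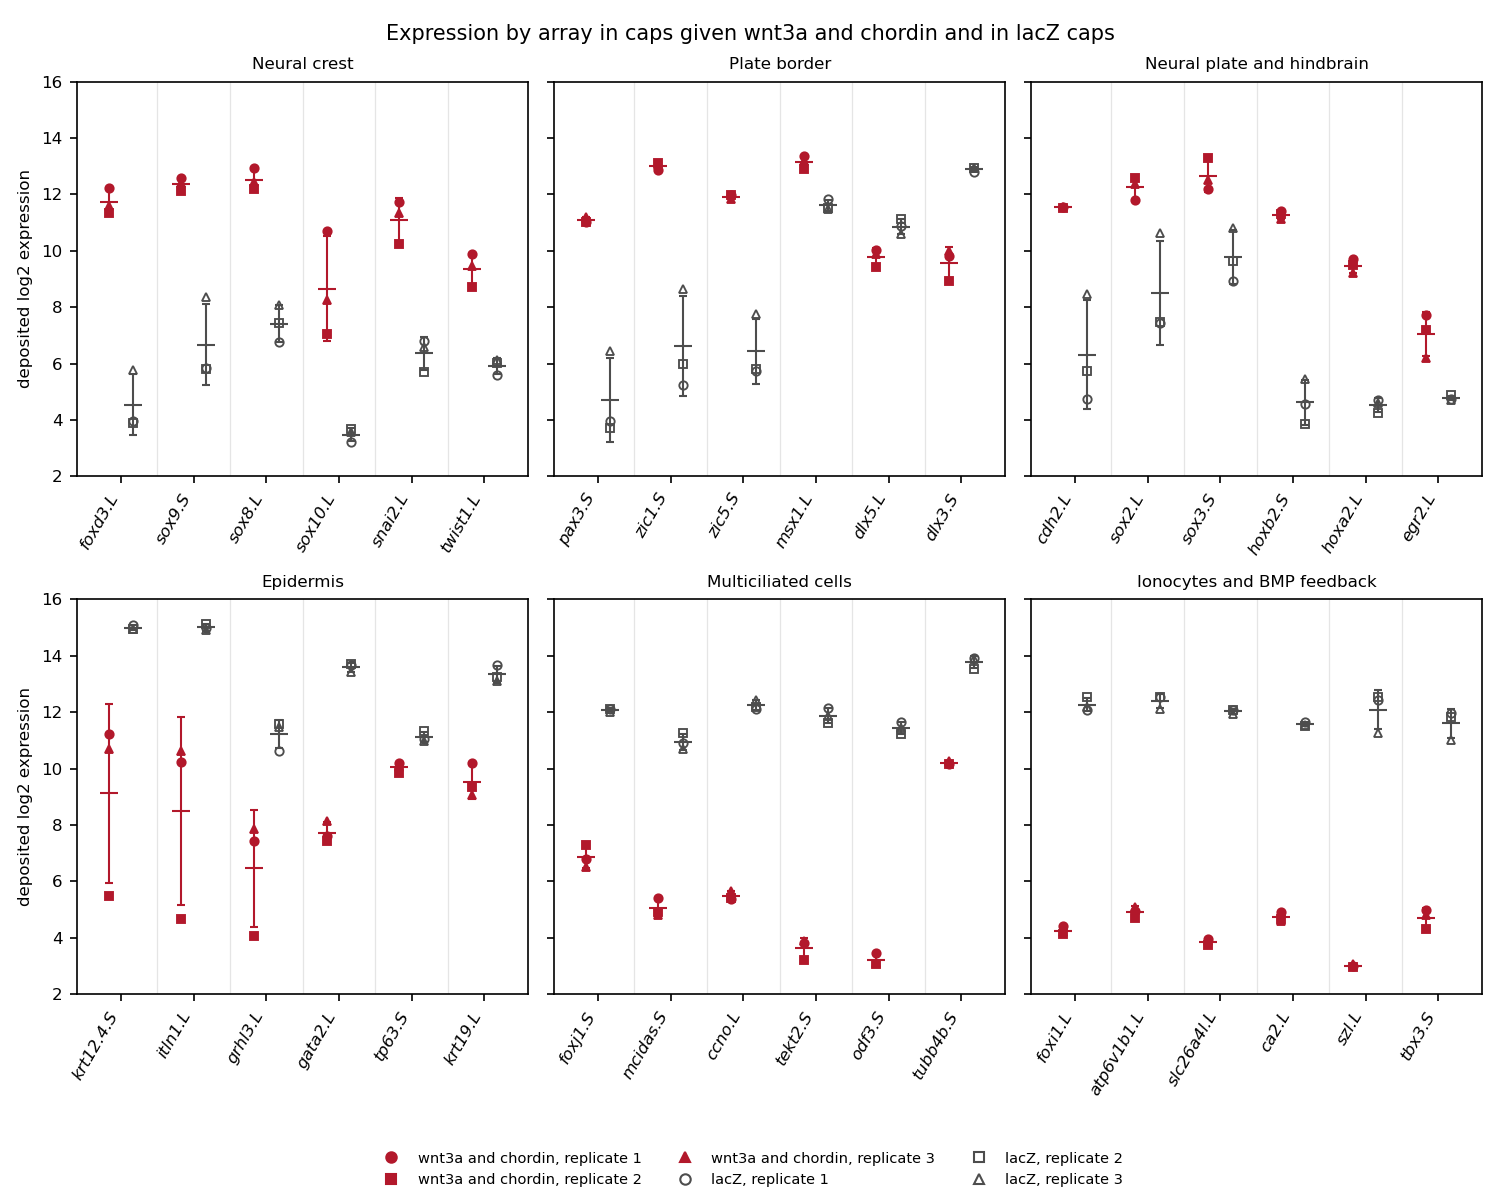
Deposited log2 expression of 36 genes in 6 panels, with filled red symbols for the 3 wnt3a and chordin arrays left of open grey symbols for the 3 lacZ arrays; bars are the mean and SD. Crest, border and neural genes lie higher in wnt3a and chordin arrays except dlx5.L and dlx3.S, skin genes lie lower, and wnt3a and chordin replicate 2 is lowest for krt12.4.S, itln1.L and grhl3.L.

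Genes for the surface and migration of crest cells were split. Of 48 measured, 24 were higher and 5 lower, with a median of 0.61. aqp3.L, the gene of a water and glycerol channel, read 13.41, 12.94 and 13.18 in wnt3a and chordin arrays, against 4.54, 4.55 and 7.79 in lacZ arrays (7.55 ± 0.71). pcdh8.L, a protocadherin gene of moving mesoderm and border cells, was higher by 5.09 ± 0.58, nrp1.L, a co-receptor gene for semaphorins, by 5.54 ± 0.46, and pdgfra.L by 2.85 ± 0.38. cdh11.S, a cadherin gene of migrating crest, rose by 1.36 ± 0.29 yet remained dim, at 4.69, 4.84 and 5.41 in wnt3a and chordin arrays, against 3.11, 3.60 and 4.16 in lacZ arrays. The receptor genes kit.L and ngfr.L, of the pigment cell and glial lineages, went the other way. kit.L read 4.34, 4.44 and 4.34 in wnt3a and chordin arrays, against 9.29, 8.97 and 9.21 in lacZ arrays (-4.78 ± 0.31), and ngfr.L differed by -2.28 ± 0.25. Of 7 measured pigment and derivative genes 1 was higher (pmel.S, a melanosome protein gene, 1.14) and 3 were lower, and 3 were not called. The lower members were the derivative genes hand2.S (-3.96), hand2.L (-1.73) and alx1.L (-0.39), the last losing its call in several settings. The pigment gene mitf.L was not called (0.22, adjusted p = 0.255).

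At the plate border, 18 of 29 measured genes were higher and 4 lower, with a median of 1.36. pax3.S, a paired-box gene that marks the border and the later dorsal neural tube, read 11.01, 11.02 and 11.2 in wnt3a and chordin arrays, against 3.96, 3.73 and 6.44 in lacZ arrays (6.36 ± 0.67, adjusted p = 3.67e-05). zic1.S, a zinc finger gene that acts with Pax3 to specify crest, read 12.85, 13.11 and 13.03 in wnt3a and chordin arrays, against 5.25, 5.97 and 8.64 in lacZ arrays (6.37 ± 0.73, adjusted p = 6.47e-05). The probe sets of pax3.L disagreed: of 5, 2 were higher and 1 lower, and the brightest was not called (-0.62, adjusted p = 0.145, or 0.00798 with the replicate block). The BMP-dependent border genes were split by family. msx1.L read 13.35, 12.9 and 13.19 in wnt3a and chordin arrays, against 11.84, 11.5 and 11.49 in lacZ arrays, where it was bright already, a rise of 1.54 ± 0.23, and msx2.L rose by 0.98 ± 0.19. The Dlx genes of the outer, epidermal side of the border fell, with dlx3.S at -3.32 ± 0.31, dlx3.L at -2.44 ± 0.21 and dlx5.L at -1.09 ± 0.21. Of 21 cranial placode genes, which share this border origin, 4 were higher and 7 lower, with a median of -0.29.

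Genes of the neural plate as a whole rose. Of 51 measured, 37 were higher and 1 was lower, with a median of 2.59. sox2.L, which maintains neural progenitors, read 11.79, 12.57 and 12.38 in wnt3a and chordin arrays, against 7.42, 7.46 and 10.62 in lacZ arrays (3.75 ± 0.83, adjusted p = 0.00425). The groups did not overlap although lacZ replicate 3 lay well above the other lacZ arrays, and the median of the list in the third pair was 1.37, against 2.96 and 3.02 in the others. cdh2.L, the gene of N-cadherin, read 11.54, 11.52 and 11.54 in wnt3a and chordin arrays, against 4.76, 5.73 and 8.46 in lacZ arrays (5.21 ± 0.79). Of the SoxB1 and SoxC genes, sox3.S was higher by 2.87 ± 0.58 and sox11.S by 3.67 ± 0.56. The exception was pou5f3.1.L, an Oct4-related gene of pluripotent ectoderm, at -1.35.

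Neuronal differentiation genes rose in part, with 21 of 56 measured genes higher, 4 lower and a median of 0.31. tubb2b.S, a neural beta-tubulin gene, read 12.62, 12.57 and 12.65 in wnt3a and chordin arrays, against 7.31, 7.05 and 9.20 in lacZ arrays (4.76 ± 0.45). elavl3.L, an RNA-binding protein gene of new neurons, was higher by 3.38 ± 0.68, prph.S, an intermediate filament gene of peripheral and hindbrain neurons, by 3.49 ± 0.55, and the proneural gene neurog2.S by 2.61 ± 0.57. Against them, isl1.S, a LIM homeobox gene of motor and sensory neurons, differed by -3.16 ± 0.31 and syt1.L, a synaptic vesicle gene, by -4.0 ± 0.44. syt1.L was bright in the epidermal caps, at 10.37, 8.29 and 9.93 in wnt3a and chordin arrays, against 13.64, 13.54 and 13.41 in lacZ arrays.

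Along the head-to-tail axis, hindbrain genes rose. Of 26 measured, 20 were higher and 0 lower by limma (0 also at an unadjusted p under 0.05), with a median of 2.48. The mean level of the list was highest among lacZ arrays in replicate 3 (7.40, against 6.70 and 6.63), and the pair medians were 2.43, 2.86 and 1.66. cyp26c1.S, a retinoic acid-degrading enzyme gene of the anterior hindbrain, read 13.24, 12.45 and 11.91 in wnt3a and chordin arrays, against 3.56, 3.45 and 8.22 in lacZ arrays (7.46 ± 1.17, adjusted p = 0.000507). egr2.L, the Krox20 gene of rhombomeres 3 and 5, read 7.72, 7.20 and 6.20 in wnt3a and chordin arrays, against 4.76, 4.87 and 4.72 in lacZ arrays (2.26 ± 0.33, adjusted p = 0.000311). The Hox genes of the same segments differed by more. hoxb2.S read 11.4, 11.3 and 11.12 in wnt3a and chordin arrays, against 4.57, 3.84 and 5.45 in lacZ arrays (6.66 ± 0.32, adjusted p = 9.57e-07). hoxa2.L read 9.69, 9.50 and 9.20 in wnt3a and chordin arrays, against 4.71, 4.26 and 4.61 in lacZ arrays (4.93 ± 0.16, adjusted p = 3.87e-07), and hoxa2.S differed by 4.71 ± 0.36.

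Few forebrain and eye field genes were higher. Of 42 measured, 2 were higher and 10 (23.8%, against 19.1% over all genes) lower, with a median of -0.24. The lower members included both homeologs of tbx2, tbx3 and nkx2-3, which were bright in lacZ caps, and tbx3 is also in the list of BMP targets. Of these, tbx2.L differed by -5.70 ± 0.65 and nkx2-3.L by -5.50 ± 0.64. The count of lower members thus does not describe anterior genes alone. six3.L, a homeobox gene of the most anterior plate, read 4.87, 4.67 and 4.55 in wnt3a and chordin arrays, against 5.95, 7.03 and 7.82 in lacZ arrays (-2.24 ± 0.40, adjusted p = 0.00118), whereas its homeolog six3.S was not called (0.0 ± 0.12). otx2.L, another anterior gene, was high in lacZ replicate 3. It read 6.23, 5.43 and 6.41 in wnt3a and chordin arrays, against 6.30, 6.68 and 10.09 in lacZ arrays, and was not called (-1.67 ± 0.97, adjusted p = 0.204). Its homeolog otx2.S (-0.96, adjusted p = 0.221) and the anchor genes rax.L (-1.07, adjusted p = 0.184) and rax.S (-0.23, adjusted p = 0.611) were not called either. The 2 members called higher were sfrp2.S, a secreted Wnt modulator gene with wide neural expression (1.59 ± 0.15), and pax6.L, whose groups overlapped and whose call was lost with the replicate block (2.35 ± 0.85, adjusted p = 0.048, or 0.0509 with the block and up to 0.171 with 1 array left out).

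In the midbrain and midbrain-hindbrain boundary list, 7 of 20 genes were higher and 3 lower, with a median of 0.45. lmx1b.1.S, a LIM homeobox gene of the boundary and dorsal plate, read 11.71, 11.39 and 11.37 in wnt3a and chordin arrays, against 5.67, 5.74 and 7.25 in lacZ arrays (5.27 ± 0.43, adjusted p = 8.13e-06). wnt1.L rose by 1.30 ± 0.21, whereas en2.L, an engrailed gene of the boundary, had overlapping groups and was not called, at 5.16, 4.11 and 4.16 in wnt3a and chordin arrays, against 3.80, 4.34 and 4.29 in lacZ arrays. fgf8.L, the organiser signal of the boundary, was not called with all arrays (1.40 ± 0.79, adjusted p = 0.193) and was called without lacZ replicate 3 (2.33, adjusted p = 0.016).

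The spinal cord and tail bud genes differed between the wnt3a and chordin arrays. With all arrays, 4 of 36 measured genes were higher and 0 lower by limma (0 also at an unadjusted p under 0.05), with a median of 0.25 (-0.03 without wnt3a and chordin replicate 3), and 8 were higher with the replicate block or without wnt3a and chordin replicate 1. The mean level of the list was 5.91, 7.99 and 8.07 in wnt3a and chordin arrays, against 6.28, 6.77 and 7.39 in lacZ arrays. Replicate 1 of the wnt3a and chordin arrays lay below each lacZ array, and replicates 2 and 3 lay above each. Muscle and notochord genes were low in the same array, with mean levels of 5.24 and 5.61 in replicate 1 and of 7.01 to 7.72 in replicates 2 and 3, and their part in this result was not tested. hoxb9, a gene of the trunk spinal cord, read 7.53, 10.56 and 10.72 in wnt3a and chordin arrays, against 6.52, 7.39 and 8.82 in lacZ arrays. It was not called (2.02 ± 1.02, adjusted p = 0.145), but was with the block (adjusted p = 0.0228) and without wnt3a and chordin replicate 1 (3.06, adjusted p = 0.028). cdx4.L, a caudal-type gene that turns on posterior Hox genes, read 8.09, 11.35 and 11.52 in wnt3a and chordin arrays, against 8.37, 9.70 and 10.19 in lacZ arrays (0.90 ± 1.00, adjusted p = 0.524). Of the tail bud genes, wnt8a.L was higher by 2.68 ± 0.67 and nkx1-2.L by 1.49 ± 0.33, and tbxt.S, the Brachyury gene, was not called (0.19 ± 0.89). wnt3a.S is itself a member of this list.

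Hox genes differed by paralogue group. Of the 6 measured genes of groups 2 to 4, 5 were higher, with a median of 3.66, and all 6 differences were positive in each of the 3 pairs of arrays. Medians of the pairs were 3.13, 4.23 and 3.55. Of the 19 genes of groups 5 to 13, 1 was higher (hoxd13.S, 0.60 ± 0.16, adjusted p = 0.0132, or 0.0503 without lacZ replicate 3). Their pair medians were -0.36, 1.63 and 1.20, with 7, 17 and 18 of 19 differences positive. In groups 6 to 11 the number positive was 3, 14 and 14 of 14, and 0 of the 14 were called by limma (0 also at an unadjusted p under 0.05). The split was wide in hoxc6.S, at 5.67, 10.05 and 10.15 in wnt3a and chordin arrays, against 6.98, 7.83 and 8.79 in lacZ arrays (0.75 ± 1.29, adjusted p = 0.693). hoxd10.L read 3.81, 8.24 and 8.42 in wnt3a and chordin arrays, against 4.82, 5.30 and 6.65 in lacZ arrays. Posterior Hox genes were thus above their lacZ partners in replicates 2 and 3 and mostly below in replicate 1, whereas the group 2 genes were alike in all 3.

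**Figure D3:**
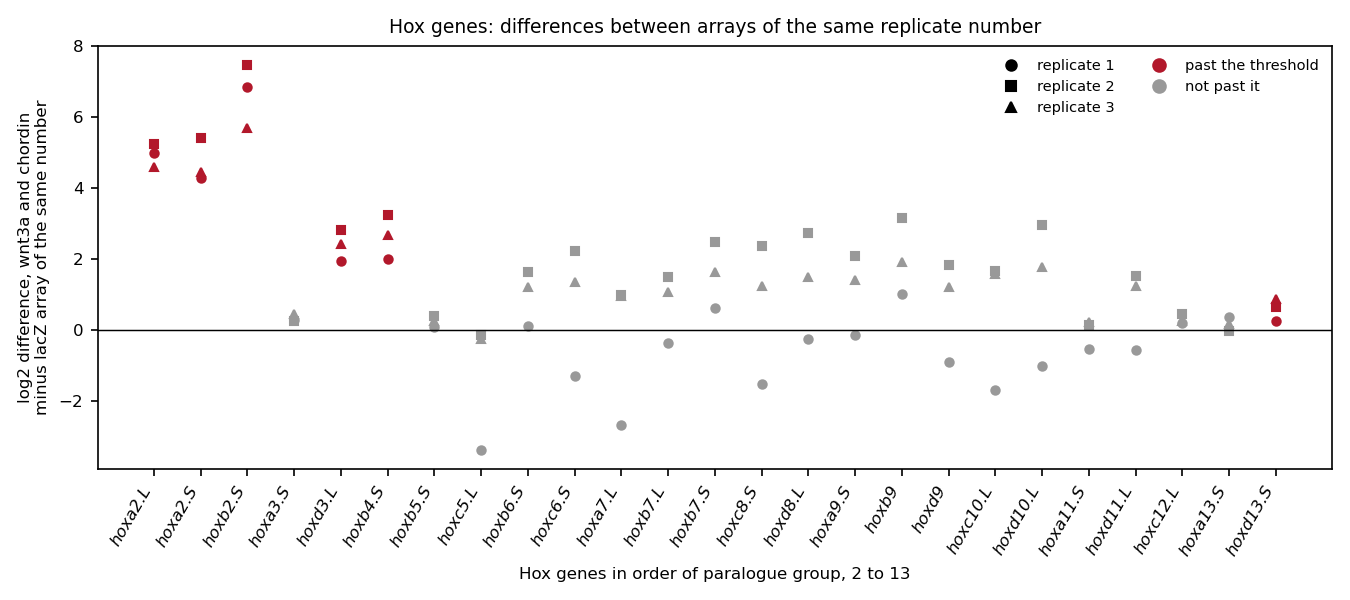
Log2 difference between the wnt3a and chordin array and the lacZ array of the same number for each of 25 Hox genes, in order of paralogue group from 2 to 13, with 1 symbol per replicate. Genes of groups 2 to 4 are positive in every pair; in groups 6 to 11 replicate 1 is positive for 3 of 14 genes, and replicates 2 and 3 for 14 of 14.

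Dorsoventral patterning genes of the neural tube were higher in 12 of 22 cases and lower in 2, with a median of 1.23. gli3.L, a transcription factor gene of Hedgehog signalling that acts mainly as a repressor dorsally, read 10.58, 10.57 and 10.59 in wnt3a and chordin arrays, against 8.12, 8.25 and 8.45 in lacZ arrays (2.31 ± 0.20), and gli2.L was higher by 2.80 ± 0.46. irx3.L, an Iroquois gene of the intermediate tube, was higher by 3.26 ± 0.55.

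FGF signalling genes were higher in 14 of 36 cases and lower in 2, with a median of 0.45 (9 higher without lacZ replicate 1, without lacZ replicate 2 or without wnt3a and chordin replicate 2). fgfr4.L, a receptor gene of posterior neural plate, read 11.28, 11.73 and 11.68 in wnt3a and chordin arrays, against 7.23, 7.72 and 8.54 in lacZ arrays (3.73 ± 0.33), and flrt3.L, a modulator gene induced by FGF, was higher by 2.48 ± 0.37. Of 24 retinoic acid genes 6 were higher (25%, near the 25.9% over all genes) and 2 lower (8.33%, against 19.1%), with a median of 0.15. The enzymes were split, with rdh10.L, which makes retinaldehyde, at 1.70 ± 0.34, and dhrs3.L, which turns it back to retinol, at -2.91 ± 0.28. The gene of the synthetic enzyme aldh1a2.L was not called (-0.41 ± 0.18, adjusted p = 0.0977). In the Notch pathway 18 of 29 genes were higher and 2 lower, with a median of 0.94. hes5.2.L, a Notch effector gene of neural progenitors, read 9.04, 8.96 and 8.45 in wnt3a and chordin arrays, against 4.54, 4.56 and 6.87 in lacZ arrays (3.49 ± 0.70), and neurl1.L, a ligand ubiquitin ligase gene, fell by 4.05.

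The skin markers krt12.4.S, itln1.L, gata2.L and foxj1.S read above 12 in each lacZ array. Replicate 3 of lacZ also read higher for genes of other lists, and whether other tissue was present was not tested. As given above, 106 genes lay at least 2 units above both other lacZ arrays there. Of these, 21 are in the muscle, notochord, tail bud or Hox lists and 23 in neural, crest, placode or forebrain lists. Epidermal genes fell in wnt3a and chordin caps. Of 55 measured, 33 were lower and 5 higher, with a median of -1.07. krt12.4.S, the classical epidermal keratin gene of the frog embryo, read 11.21, 5.47 and 10.7 in wnt3a and chordin arrays, against 15.1, 14.95 and 14.95 in lacZ arrays (-5.87 ± 1.53, adjusted p = 0.0102). itln1.L, an intelectin gene of goblet cells, read 10.22, 4.66 and 10.61 in wnt3a and chordin arrays, against 14.98, 15.14 and 14.9 in lacZ arrays (-6.51 ± 1.46, adjusted p = 0.00457). Replicate 2 of wnt3a and chordin was far lower than replicates 1 and 3, which still read above 10 for both genes. The calls of both held when any 1 array was left out.

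Regulators of the epidermis fell as well, and gata2.L did so more evenly across arrays. gata2.L, a BMP-induced gene of ventral ectoderm, read 7.60, 7.45 and 8.14 in wnt3a and chordin arrays, against 13.66, 13.71 and 13.42 in lacZ arrays (-5.86 ± 0.71, adjusted p = 9.52e-05), and gata3.S differed by -5.88 ± 0.44. grhl1.L and grhl3.L, Grainyhead genes that turn on the barrier programme, differed by -3.43 ± 0.31 and -4.76 ± 0.89. For grhl3.L wnt3a and chordin replicate 2 was the lowest array, as for krt12.4.S and itln1.L. tp63.S, the p63 gene of the basal layer, differed by less: it read 10.21, 9.86 and 10.07 in wnt3a and chordin arrays, against 11.06, 11.33 and 10.97 in lacZ arrays (-1.07 ± 0.35, adjusted p = 0.0322), and the call was lost when any 1 array was left out (adjusted p up to 0.0974). Its homeolog tp63.L was not called (-0.54, adjusted p = 0.358, or 0.0224 with only the 6 arrays), so a fall of p63 was not firm.

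Among junction and filament genes, those of desmosomes fell. Of 13 desmosome genes 11 were lower and 1 higher, with a median of -1.67. ppl.L, the periplakin gene, differed by -4.15 ± 0.58 and evpl.L, the envoplakin gene, by -3.30 ± 0.35, while dsc3.S, a desmocollin gene, was higher by 1.80 ± 0.29. Keratin genes were not uniformly lower: of 29, 8 were lower, 4 higher and 17 not called. krt19.L fell by 3.81 and krt18.3.L by 4.72 on the log2 scale. Cadherins moved in both directions. cdh1.S, an E-cadherin gene, read 9.49, 7.97 and 9.28 in wnt3a and chordin arrays, against 10.97, 10.95 and 11.3 in lacZ arrays (-2.16 ± 0.40, adjusted p = 0.00142), while both N-cadherin homeologs rose (cdh2.S by 3.75 ± 0.46). Of 18 cadherins and protocadherins 8 were higher and 3 lower. Of 16 claudins 4 were higher (7 with the replicate block) and 2 lower, with cldn6.1.L at 3.05 ± 0.35. Of 39 Eph, ephrin, semaphorin and related guidance genes 15 were higher and 6 lower.

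Genes of multiciliated cells fell almost throughout. Of 49 measured genes 45 were lower and 1 higher, with a median of -3.96 and pair medians of -4.07, -3.94 and -3.88. The fate regulators were among them. mcidas.S, which commits cells to the fate and starts centriole amplification, read 5.41, 4.91 and 4.82 in wnt3a and chordin arrays, against 10.9, 11.26 and 10.7 in lacZ arrays (-5.91 ± 0.48). ccno.L, a cyclin O gene of centriole production, read 5.38, 5.40 and 5.67 in wnt3a and chordin arrays, against 12.13, 12.18 and 12.45 in lacZ arrays (-6.77 ± 0.63). foxj1.S, the forkhead gene of motile cilia, read 6.80, 7.28 and 6.52 in wnt3a and chordin arrays, against 12.13, 12.12 and 12.02 in lacZ arrays (-5.22 ± 0.42, adjusted p = 7.57e-06). In these 3 genes the spread within a group was small beside the distance between groups.

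Structural genes of cilia fell too. tekt2.S, a tektin gene of the axonemal doublets, read 3.80, 3.23 and 3.90 in wnt3a and chordin arrays, against 12.16, 11.6 and 11.88 in lacZ arrays (-8.24 ± 0.78), the largest fall of the list. In the wider family of axonemal dyneins, radial spokes, tektins and transport particles, 59 of 62 genes were lower, with a median of -3.20. None was higher by limma (0 of 62, also at an unadjusted p under 0.05), and 1 was with the replicate block. tubb4b.S, a beta-tubulin gene of axonemes, fell by 3.59, whereas the neural tubb2b.S rose. The member called higher was e2f4.S (1.22 ± 0.14), an E2F gene that partners multicilin and also serves cycling cells.

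Ionocyte genes fell in 21 of 31 cases and rose in 1, with a median of -2.58. foxi1.L, the forkhead gene that specifies ionocytes, read 4.43, 4.13 and 4.20 in wnt3a and chordin arrays, against 12.09, 12.53 and 12.18 in lacZ arrays (-8.01 ± 0.89, adjusted p = 5.18e-05). atp6v1b1.L, a proton pump subunit gene of these cells, read 4.94, 4.69 and 5.10 in wnt3a and chordin arrays, against 12.53, 12.55 and 12.13 in lacZ arrays (-7.50 ± 0.85). The fall extended to the proton pump at large, with 23 of 27 V-type subunit genes lower and a median of -1.47, and atp6v0e2.S higher by 1.76. slc26a4l.L, a pendrin-like anion exchanger gene, fell by 8.18 and ca2.L, a carbonic anhydrase gene, by 6.84 on the log2 scale. Over 203 solute carriers 62 were lower and 24 higher. slc7a8.S, an amino acid transporter gene, was higher by 3.68 ± 0.45.

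Of 7 small secretory cell genes 4 were lower, among them foxa1.L, a forkhead gene of this cell type, which read 5.30, 5.92 and 6.57 in wnt3a and chordin arrays, against 9.84, 9.57 and 9.12 in lacZ arrays (-3.58 ± 0.58). tph1.L, the gene of the serotonin-making enzyme, was dim in both groups and not called. Of 9 cement and hatching gland genes 3 were lower. agr2.L read 4.39, 4.00 and 3.73 in wnt3a and chordin arrays, against 10.34, 11.08 and 12.27 in lacZ arrays (-7.19 ± 0.48, adjusted p = 3.01e-06). ag1.S, a cement gland gene, overlapped between groups, at 11.12, 7.80 and 9.69 in wnt3a and chordin arrays, against 12.15, 10.76 and 13.46 in lacZ arrays. Its difference of -2.58 ± 0.92 (adjusted p = 0.0451) was no longer called with only the 6 arrays or with array weights. The call was also lost without lacZ replicate 1, lacZ replicate 3 (-1.91, adjusted p = 0.157), wnt3a and chordin replicate 2 (-1.72, adjusted p = 0.171) or wnt3a and chordin replicate 3.

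**Figure D4:**
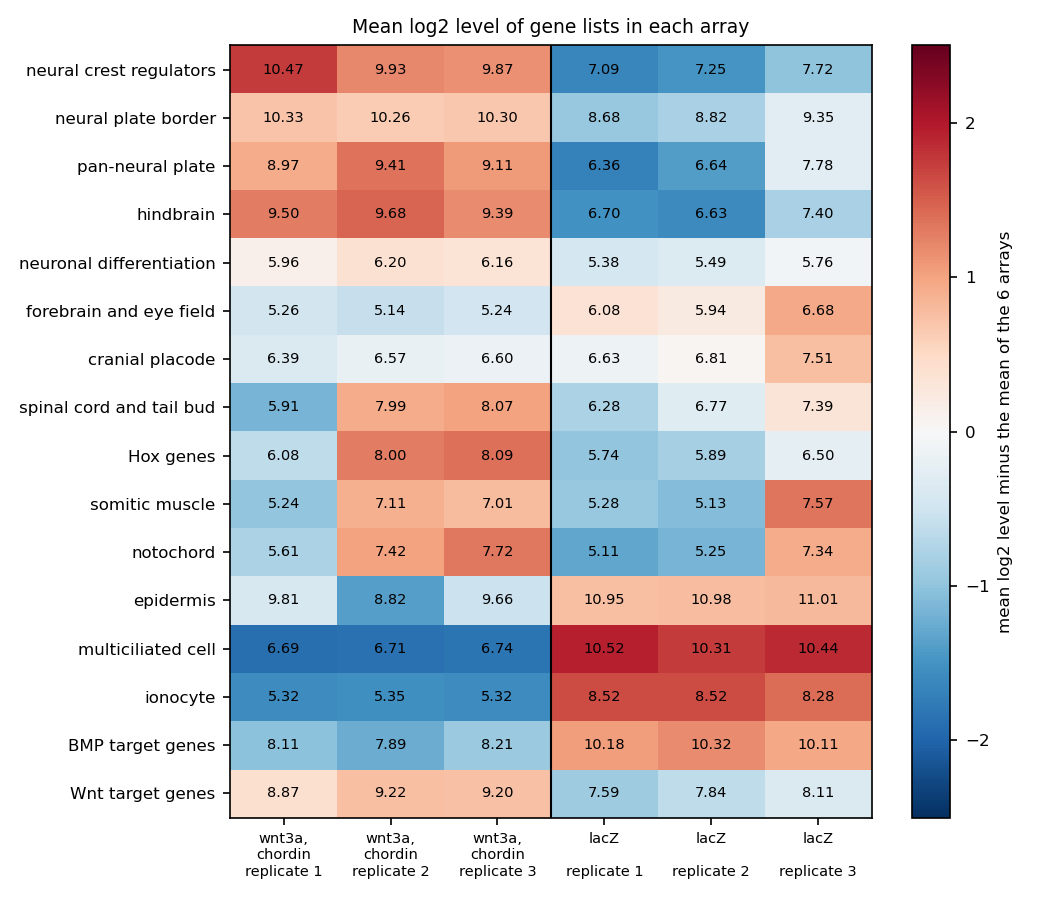
Mean log2 level of the members of 16 gene lists and families in each array, with the 3 wnt3a and chordin arrays left of the 3 lacZ arrays; colour is the distance from the mean of the 6 arrays. Multiciliated cell genes averaged 6.69, 6.71 and 6.74 in wnt3a and chordin arrays, against 10.52, 10.31 and 10.44 in lacZ arrays, and spinal cord, Hox, muscle and notochord genes were low in wnt3a and chordin replicate 1.

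Transcription factor families differed in the way they moved. Each of the 5 measured Zic genes was higher, with a median of 5.36. Their mean level was 11.83, 12.01 and 11.89 in wnt3a and chordin arrays, against 6.23, 6.31 and 8.21 in lacZ arrays, so that the pair median was 3.69 in the third pair and 6.22 and 6.17 in the others. zic5.S read 11.97, 11.96 and 11.83 in wnt3a and chordin arrays, against 5.75, 5.79 and 7.77 in lacZ arrays. Of 19 Sox genes 12 were higher and 1 lower, and the lower one was sox7.L, a SoxF gene, at -4.93 ± 0.45. Of 6 Irx genes 4 were higher, with irx1.L at 3.36 ± 0.79 and irx1.S at 3.36 ± 0.36. Of 10 Gata genes 5 (50%, against 19.1% over all genes) were lower and 0 higher by limma, and of 19 T-box genes 5 (26.3%) were lower and 0 higher by limma (0 also at an unadjusted p under 0.05 in both). tbx3.S, a BMP-dependent T-box gene, read 4.98, 4.30 and 4.82 in wnt3a and chordin arrays, against 11.97, 11.83 and 11.0 in lacZ arrays (-6.90 ± 0.68). The Fox family was split, with 5 of 42 higher (11.9%) and 15 lower (35.7%). In the POU family 4 of 12 were higher (2 to 6 with 1 array left out, 2 without lacZ replicate 2, lacZ replicate 3 or wnt3a and chordin replicate 2) and 3 lower. These POU shares were 33.3% and 25%, against 25.9% and 19.1% over all genes. Of its members pou3f1.L, a neural POU gene, was higher by 4.57 and pou2f3.L fell by 5.94. Of 22 Hes, Hey and Id genes 13 were higher and 4 lower.

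Genes of growth and division were higher by small amounts. Of 56 DNA replication genes 37 were higher and 1 lower, with a median of 0.81, and mcm4.S, a subunit of the replicative helicase, read 10.12, 9.65 and 9.70 in wnt3a and chordin arrays, against 7.16, 6.66 and 8.05 in lacZ arrays (2.53 ± 0.36). Of 72 mitosis genes 46 were higher and 3 lower, with a median of 0.61. The lower ones were the entries of cyclin A1, with ccna1.S at 6.20, 6.24 and 6.20 in wnt3a and chordin arrays, against 11.38, 10.53 and 10.94 in lacZ arrays (-4.74 ± 0.37). Cyclin A1 is the maternal and meiotic A-type cyclin of the frog egg. Ribosome biogenesis genes were higher in 49 of 57 cases (median 0.71), splicing factors in 50 of 71 (0.44), chromatin regulators in 44 of 78 with 5 lower (0.54), proteasome subunits in 32 of 59 with 1 lower (0.41) and translation factors in 29 of 64 with 3 lower (0.32).

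Cytoplasmic ribosomal protein genes were higher in 36 of 88 cases with a median of 0.25, and this count depended on the fit: it was 61 with the replicate block, 48 with each array centred on its median, 16 with only the 6 arrays and 14 to 25 with 1 array left out. Mitochondrial respiratory chain genes had a median of 0.05, with 10 of 92 higher and 8 lower (20 higher with the replicate block).

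The mean levels of the muscle and notochord lists did not separate the groups. Muscle genes averaged 5.24, 7.11 and 7.01 in wnt3a and chordin arrays, against 5.28, 5.13 and 7.57 in lacZ arrays. Notochord genes averaged 5.61, 7.42 and 7.72 in wnt3a and chordin arrays, against 5.11, 5.25 and 7.34 in lacZ arrays. In both lists replicate 3 of lacZ lay near replicates 2 and 3 of wnt3a and chordin, and the other lacZ arrays near replicate 1. actc1.L, the cardiac actin gene that marks somitic muscle at this stage, read 5.32, 10.45 and 10.45 in wnt3a and chordin arrays, against 5.47, 5.18 and 11.08 in lacZ arrays. Of 26 muscle genes 3 were higher and 1 lower (0 higher without wnt3a and chordin replicate 1, and 1 without lacZ replicate 2 or without wnt3a and chordin replicate 2), and of 14 notochord genes 1 was higher (2 with the replicate block). The notochord gene called without the block was nog.L, and the block added chrd.1.S. The chrd.1.S probe set may read injected chordin mRNA, so the notochord mean levels may include it. In the broader mesoderm list 3 of 40 were higher and 5 lower, in the endoderm list 2 of 22 and 6, in the blood list 2 of 18 and 2. Of the wnt3a and chordin arrays, those with higher muscle and notochord levels were also those with higher posterior Hox levels.

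Homeologs that were both called mostly moved the same way. Among 2005 pairs with a probe set for each, both members were called in 596, with the same direction in 559 and opposite directions in 37. In 672 pairs 1 member was called and in 737 neither. The median absolute distance between the L and S differences was 0.35. Of the opposite pairs, slc3a2, an amino acid transporter subunit, differed by 1.68 for L and by -3.75 for S, and nr1i2, a nuclear receptor of xenobiotics, by -1.61 for L and 3.14 for S. Among 2597 genes with several probe sets, 38 had calls in both directions. They include crabp2.L, a retinoic acid-binding protein gene, whose brightest probe set was higher by 4.65 ± 1.09.

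The other 6 arrays give the same contrast in caps labelled as injected with kctd15 mRNA in addition, and share no array with it. The 2 contrasts are not independent, since 1 fit gave both the same estimate of spread for each probe set. Same-numbered arrays of the 2 sets also varied together. The correlation of deviations between lacZ and kctd15 arrays was 0.706, 0.665 and 0.681 in replicates 1, 2 and 3. The kctd15.L probe set goes against those labels, since it was lower in the arrays labelled kctd15, at 3.52, 6.77 and 5.18 with wnt3a and chordin and 4.17, 3.77 and 6.43 without, than in the 6 arrays compared here (10.22 to 11.22). Whether this probe set covers the injected mRNA was not tested. Of the 2805 genes higher in wnt3a and chordin caps, 2232 (79.6%) were also higher in those labelled kctd15, which is 81.7% of the 2733 called there, and 13 were lower. Of the 2069 lower genes, 1711 (82.7%) were also lower, 76.6% of the 2235 called there, and 11 were higher. Of the genes that moved by at least 2 units, 296 of 323 and 600 of 663 were called the same way.

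In the arrays labelled kctd15, 25.3% of all genes were higher and 20.7% lower, and the list counts there should be read against these shares. List by list, they gave 20 of 26 hindbrain genes higher (median 3.32) and 37 of 51 pan-neural genes (2.80). For crest regulators, 16 of 27 were higher (median 1.57), and for the plate border 14 of 29 (0.56). Multiciliated cell genes had a median of -2.53 with 43 of 49 lower, ionocyte genes -1.25 with 19 of 31 lower, and BMP targets -2.07 with 29 of 47 lower. In members of these lists, replicate 2 of the arrays labelled wnt3a, chordin and kctd15 stood above replicates 1 and 3. There tekt2.S read 3.85, 7.72 and 4.52, foxi1.L 4.10, 8.98 and 6.55, and szl.L 3.39, 8.42 and 3.70. How far that array set these medians was not tested. A test of the difference between the 2 contrasts called 146 of 10822 genes (1.35%). With the replicate block it called 388.

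**Figure D5:**
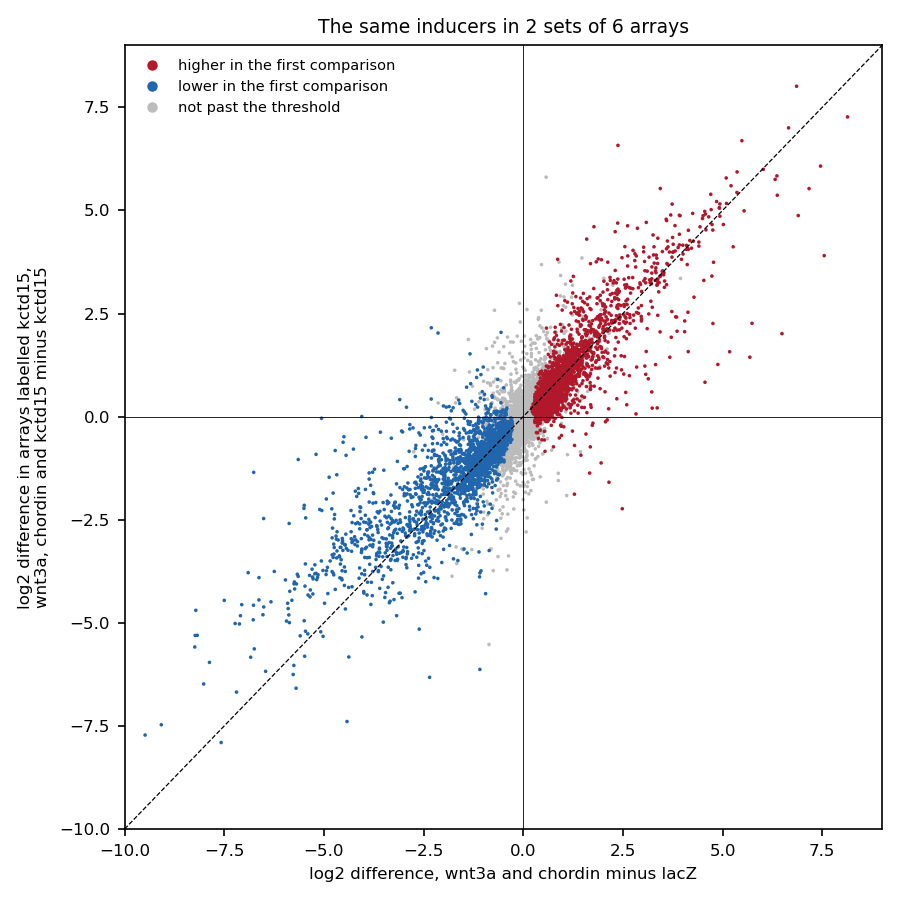
Log2 difference of each of 10822 genes in wnt3a and chordin minus lacZ arrays (x) against the difference between the 2 groups of arrays labelled kctd15 (y), with genes called higher in wnt3a and chordin caps in red, lower in blue and the others in grey, and a dashed diagonal. Red genes lie mostly at the upper right and blue genes at the lower left, as 79.6% and 82.7% of them were called the same way in both.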

How the data were processed

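Expression was measured on Affymetrix 3' arrays from total RNA of animal caps, 1 array per sample and 3 per group, with biotin-labelled RNA made by in vitro transcription, per the labels' protocols. The authors deposited log2 expression values per probe set, processed with Partek per the submitters' processing notes, while background step, normalization and genome build were not given in the sources used here. Among 32635 probe sets, 96 were controls and 64 reporters, and these were not tested. In the platform annotation 15495 of the tested probe sets had 1 gene symbol, 279 several and 16701 none. Gene identifiers of 15384 were found in RefSeq's table of the Xenopus laevis assembly v10.1, which gave current symbols, and 111 were not.

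Means of the 4 groups were estimated from all 12 arrays in R 4.3.3 with lmFit, contrasts.fit and eBayes of limma 3.58.1, without a block, and two-sided p-values were adjusted by Benjamini and Hochberg's method over all tested probe sets. The fit was tested on simulated data first. Alternatives were a replicate block, only the 6 arrays, quantile normalization, centring, array weights, a variance trend, dim probe sets left out, 1 probe set per gene, the probe set of largest variance and each array left out in turn.

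Whether replicate numbers pair the samples was checked by the correlation of deviations from group means, which was 0.577, 0.299 and 0.478 for the 3 pairs of these groups, each over 0.1. Blocked values are therefore given for part of the calls they change. Unprinted changes include 27 neuronal differentiation genes higher with the block (21 without it), 46 DNA replication genes (37) and 32 Wnt ligands, receptors and modulators (25). With the block 3 Pax genes were higher (4 without it) and 4 muscle genes lower (1). The named genes cdx2.L, neurod1.S and spry2.S were called only with the block.

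The gene lists and families were chosen with earlier results of these data known. Named genes are the injected ones, the 15 largest non-overlapping changes in each direction, anchor genes of each list, up to 4 called members per list and any of 5 or fewer called against the majority, and up to 3 per family and direction. The astacin-like family, bmp2.L, bmp2.S, ets1.L, ets1.S, gli3.L, grhl1.L, hoxd10.L, msx2.L, sox11.S, tfap2a.L, tfap2b.L, twsg1.L, twsg1.S and the opposite homeolog pairs were added after their values were seen.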

Additional observations from a re-analysis of the deposited data

Results flagged for a closer look

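For 16 of the 344 named genes the wnt3a and chordin effect differed between the 2 sets of 6 arrays. The test was of the difference itself (limma, adjusted p under 0.05), and over all 32475 probe sets it called 371 (1.14%). Many named genes were chosen for a large wnt3a and chordin minus lacZ difference, which enters this test with a minus sign. That choice favours smaller effects in the other set, so the 16 are a description only. The difference given is the effect in the arrays labelled kctd15 minus the effect in the arrays without that label. The kctd15.L probe set goes against those labels, as described above, and none of these differences was weighed for a cause.

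Some effects were larger in the arrays labelled kctd15. klf2.S, a Krüppel-like factor gene, differed by -6.32 there and by -2.35 in the comparison with lacZ, a difference of -3.97 (adjusted p = 0.000852). The distal-less genes dlx5.L (-3.79 and -1.09, difference -2.70, adjusted p = 0.00456) and dlx3.L (-4.0 and -2.44, difference -1.56, adjusted p = 0.0397) fell further there, and sfrp2.S rose further (4.31 and 1.59, difference 2.71, adjusted p = 0.000852).

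Other effects were smaller there. Among lower genes, the difference between the effects was 4.28 for nkx2-3.S (-0.91 and -5.20), 3.90 for the potassium channel gene kcnj15.L (-0.62 and -4.52), 3.89 for krt18.3.L (-0.82 and -4.72), 2.94 for tbx3.L (-2.0 and -4.94), 2.40 for fzd4.S (-1.81 and -4.21) and 1.93 for ngfr.L (-0.35 and -2.28). Among higher genes it was -4.48 for crisp1.5.S (2.01 and 6.49), -3.62 for sox9.L (1.27 and 4.88), -2.63 for hes2.L (0.60 and 3.23) and -2.31 for cyp46a1.2.L (0.29 and 2.60).

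For 2 genes the effects had opposite signs. efnb3.L, an ephrin gene, was at 1.52 in the arrays labelled kctd15 and at -1.33 in the comparison with lacZ, a difference of 2.86 (adjusted p = 0.00913). dll1.L, a Notch ligand gene, was at -1.55 and at 0.88, the second not called (adjusted p = 0.0601), a difference of -2.43 (adjusted p = 0.0434).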

How the results depend on the processing

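There were 15 alternative settings, and the probe set of largest variance was tried for lists and families only, not for named genes. In the other settings that tested the gene's probe set, 257 of 299 called named genes kept the call throughout. The call was lost in at least 1 of them by 42, and 0 called genes changed direction in any. Of 913 list medians 63 moved by more than the spread between replicates. The medians of 8 of 65 lists and families, which were between -0.12 and 0.25 as deposited, changed sign in at least 1 setting, namely pigment, spinal cord, mesoderm, blood, stress, tubulin, P450 and channel genes. With dim probe sets left out, 3692 probe sets were lower (5566 with all), 1812 higher and 2381 lower by at least 2-fold (2836 and 3656), and 202 differed in effect between the 2 sets of arrays (371). With 1 probe set per gene, which tests fewer, 4978 were called (13421 with all), 2885 higher (7855) and 2093 lower, 977 higher and 1338 lower by 2-fold, 5082 in the arrays labelled kctd15 (13645), and 166 differed between the sets. With the replicate block, which follows the pairing, 1063 differed between the sets, and the members higher were 8 spinal cord genes (4 without it), 2 notochord (1), 7 claudin (4), 61 ribosomal protein (36), 20 respiratory chain (10) and 28 chaperone genes (15). Of the named genes, 7 gained and 1 lost the call with the block. Only the 6 arrays gave 2 notochord and 16 ribosomal protein genes, array weights 7 spinal cord and 2 notochord genes, centring 7 claudins, 1 probe set per gene 7 claudins, a variance trend 58 ribosomal protein genes and the probe set of largest variance 1 blood gene (2). With 1 array left out, 134 to 340 probe sets differed between the sets, and the members higher were 4 to 8 spinal cord, 9 to 16 FGF, 0 to 4 muscle, 1 to 2 notochord, 1 to 3 Pax, 2 to 6 POU and 14 to 25 ribosomal protein genes. The cause was not tested. Centring moved the median of all genes to 0.154 (0.103 as deposited). Differences of dim probe sets are compressed, and 3 arrays per group limit what can be called.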

Other observations

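Many large changes lay outside the lists and families, and the genes named here were chosen after their values were seen. Of the 663 genes lower by at least 2 log2 units, 465 were in none of them, and of the 323 higher, 188. val.L fell furthest of all named genes, to 4.10, 4.22 and 3.96 in wnt3a and chordin arrays, against 13.79, 13.76 and 13.18 in lacZ arrays (-9.48 ± 0.96, adjusted p = 3.03e-05). Among those lower, 4 genes with known products in sperm or cilia were these: meig1.S differed by -6.76 ± 0.50, tsga10.L by -6.51 ± 0.55, saxo2.L by -6.33 ± 0.63 and spef1.S by -5.34 ± 0.37. atp12a.L, a proton and potassium pump gene, read 4.08, 3.71 and 4.82 in wnt3a and chordin arrays, against 11.46, 11.58 and 10.92 in lacZ arrays (-7.12 ± 0.45). otogl2.L, an otogelin-like gene of the mucin-related kind, read 10.54, 6.10 and 10.87 in wnt3a and chordin arrays, against 14.67, 14.65 and 14.67 in lacZ arrays (-5.49 ± 0.98), with replicate 2 lowest as for krt12.4.S and itln1.L. capn9.L, a calpain gene, and kitlg.L, the gene of the Kit ligand, were also lowest in that array (5.60, 3.67 and 5.87 for capn9.L and 7.78, 5.11 and 8.11 for kitlg.L in wnt3a and chordin arrays, against 12.13, 11.83 and 11.45 and 11.94, 12.22 and 12.02 in lacZ arrays). The receptor gene kit.L fell as well (-4.78 ± 0.31).

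On the higher side, xa-1.L read 14.29, 12.78 and 13.6 in wnt3a and chordin arrays, against 4.26, 4.63 and 7.37 in lacZ arrays (8.13 ± 0.87, adjusted p = 4.11e-05). lrp2.L, the gene of the endocytic receptor megalin, differed by 6.32 ± 1.01, and pnhd.L, the gene of the secreted protein pinhead, by 5.37 ± 0.67. The teashirt zinc finger genes tshz1.L, tshz1.S and tshz3.L differed by 4.93 ± 0.20, 3.89 ± 0.17 and 4.22 ± 0.25, and were dim in each lacZ array (3.91 to 4.82). The 4 RNA-binding protein genes known from neurons that were picked here rose, nova2.L by 4.74 ± 0.72, nova1.L by 4.01 ± 0.58, celf3.S by 4.14 ± 0.63 and celf3.L by 4.10 ± 0.49. Genes of the cell skeleton and matrix included vim.L, the vimentin gene of mesenchyme and neural progenitors (3.60 ± 0.33), dpysl3.S, a growth cone protein gene (4.50 ± 0.57), and has2.S, a hyaluronan synthase gene (4.92 ± 0.91). Some of these genes were far higher in lacZ replicate 3 than in the other lacZ arrays. In lacZ arrays has2.S read 3.34, 3.94 and 7.71, lrp2.L 4.13, 4.18 and 7.91, and nova2.L 5.50, 6.05 and 8.61. Among 4 astacin-like metalloprotease genes, a family added after its values were seen, astl2e.2.L read 11.49, 9.28 and 10.02 in wnt3a and chordin arrays, against 4.53, 4.56 and 4.48 in lacZ arrays, while astl2d.1.L fell by 3.83. Of 16701 probe sets without a gene symbol 3769 were higher and 2673 lower.

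Other lists and families were as follows, beside 25.9% higher and 19.1% lower over all genes. Of 18 collagens 3 were higher and 1 lower, of 17 integrins and laminins 4 and 1, of 23 Klf and Sp genes 7 and 3, of 9 Pax genes 4 and 0 by limma (0 also at an unadjusted p under 0.05, and 1 higher without lacZ replicate 1, wnt3a and chordin replicate 1 or wnt3a and chordin replicate 2), of 21 tubulins 7 and 5, and of 76 chaperones 15 (28 with the replicate block) and 8. Of 94 cytochrome P450 and other xenobiotic genes 6 were higher and 14 lower, and of 69 aquaporins and ion channels 10 and 18. Of 25 p53 targets and stress genes 3 were higher and 6 lower, with a median of -0.04.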
